A study of Mus musculus with 6 samples.

Results

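The Toll-like receptor genes were examined in 3 control and 3 relapsed mouse gliomas. A mutant form of EGFR, the epidermal growth factor receptor, drove the tumours, and relapse refers to regrowth once that receptor had been switched off. The family was taken as 10 listed mouse genes, Tlr1 to Tlr9 and Tlr13. A gene was measured if a probe set on the Affymetrix array named it and no other gene, and 9 of the 10 were, by 1 probe set each. Tlr5 was not analysed here. The 9 are set against the 19938 genes measured in the same way.

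All 6 tumours grew under the skin of the flank of Nu/Nu mice from implanted glioma cells driven by the mutant receptor. Nude mice lack a thymus and so most T cells, but keep macrophages, dendritic cells, neutrophils, natural killer cells and B cells. The control tumours are numbered 1, 2 and 4 and the relapsed tumours 1, 2 and 3, with 1 array of total RNA each. Per the labels' protocols the animals drank water with or without 2 g/L doxycycline and tumours were taken at 2 cm3, and the labels do not say which group drank the drug. They do not say how many cell clones or animals the tumours came from either, so the p-values measure the spread between these samples, which may be partly technical.

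Toll-like receptors are sentinel proteins of innate immunity, carried chiefly by macrophages, dendritic cells and other myeloid cells. Those at the cell surface bind microbial lipopeptides, lipopolysaccharide or flagellin. Those in endosomes bind RNA or DNA and need the chaperone Unc93b1 and lysosomal proteases to become active. Nearly all signal through the adaptor Myd88, and Tlr3 through Ticam1, to the NF-kB and interferon regulatory factors, which turn on cytokine genes. In the brain the receptors are best known from microglia, and Tlr3 is also found in astrocytes, fibroblasts and other cells that are not of the blood lineage.

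Of the 9 receptors measured, 5 rose in relapsed tumours and none fell. The test was limma with Benjamini-Hochberg adjustment over all genes, and genes with an adjusted p under 0.05 were called. The same test called 3.69% of all genes higher, 5.47% lower and 9.16% in either direction. The receptors that rose were Tlr8, Tlr7 and Tlr13, endosomal sensors of RNA, Tlr4, the lipopolysaccharide receptor, and Tlr6, which pairs with Tlr2 to read lipopeptides. Every relapsed array lay above every control array for 7 receptors, as for 13.0% of all genes. It lay below for 1, Tlr3, as for 17.8% of all genes. The median difference of the 9 receptors was 1.16 on the log2 scale, and that of all genes was -0.02.

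The count of 5 rested on all 6 arrays. It was 1, 2 or 1 without control 1, 2 or 4, and 3, 3 or 1 without relapsed 1, 2 or 3. Tlr8 was called in all 6 of these fits, Tlr4 in 3 and Tlr13 in 2, while Tlr6 and Tlr7 were called in none. Over all genes the number called also fell in these fits, from 1826 to between 264 and 975.

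**Figure D1:**
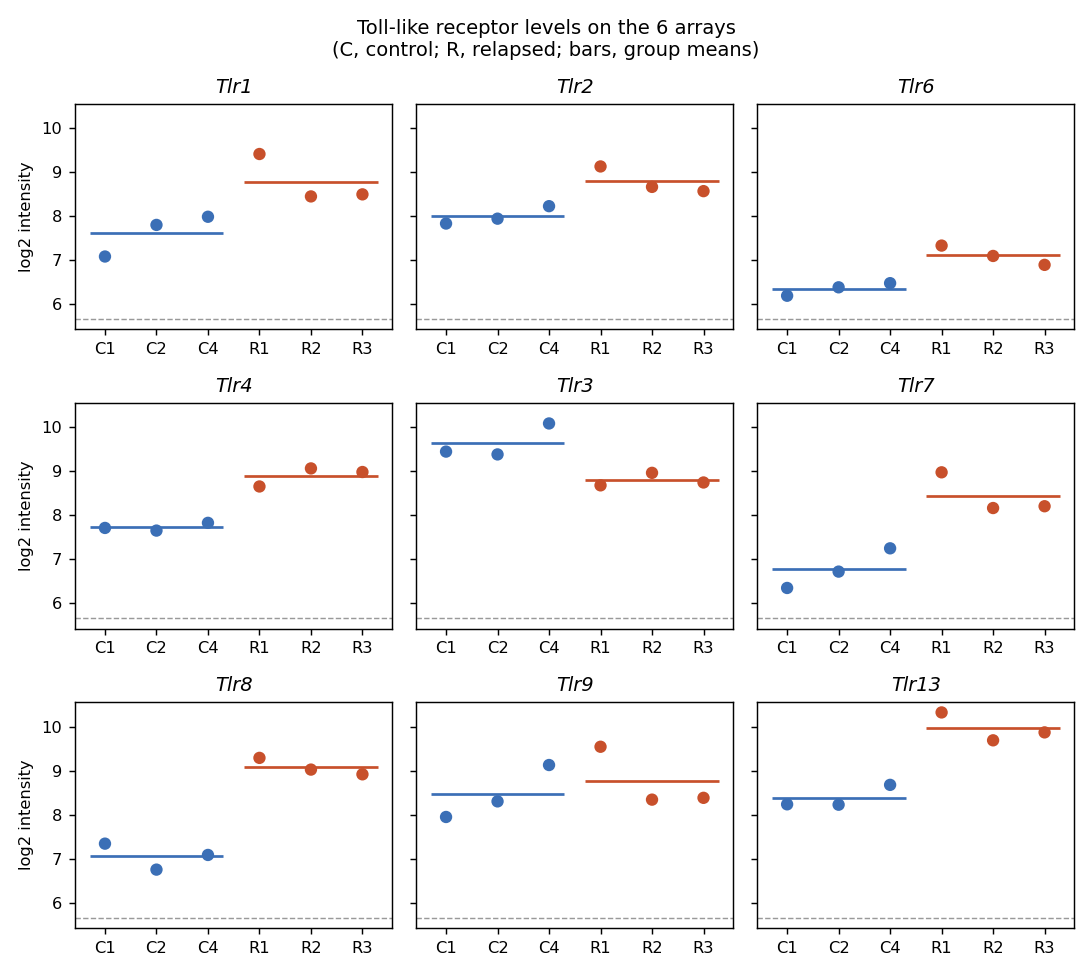
Log2 intensity of each measured Toll-like receptor (vertical axis) on each array (C, control; R, relapsed), with bars at the group means and a dashed line at 5.66, the median level of probe sets that the annotation lists under no gene. The groups are apart for every receptor but Tlr9, and Tlr3 alone is lower in the relapsed tumours.

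The letters just before the start of transcription are shown for 4 receptors whose levels went different ways, namely Tlr8 and Tlr13, which rose, Tlr9, whose groups overlapped, and Tlr3, which was lower on every relapsed array. They are the 250 bases before the gene's start from RefSeq (GRCm38.p6), read 5′ to 3′ on the gene's own strand. Capitals mark matches, on either strand, to 5 short motifs: the core of the myeloid factor PU.1 (GAGGAA), NF-kB (GGG and CC with any 5 bases between), the interferon-stimulated response element (2 copies of GAAA with any 2 bases between), AP-1 (TGANTCA) and the TATA box (TATAAA).
Tlr8 (chrX:167264330-167264579, reverse strand): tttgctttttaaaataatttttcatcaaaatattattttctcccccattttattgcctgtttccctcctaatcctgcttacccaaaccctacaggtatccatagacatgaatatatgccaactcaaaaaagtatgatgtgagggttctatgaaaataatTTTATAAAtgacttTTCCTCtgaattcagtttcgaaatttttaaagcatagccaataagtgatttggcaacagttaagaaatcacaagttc
Tlr13 (chrX:106143025-106143274, forward strand): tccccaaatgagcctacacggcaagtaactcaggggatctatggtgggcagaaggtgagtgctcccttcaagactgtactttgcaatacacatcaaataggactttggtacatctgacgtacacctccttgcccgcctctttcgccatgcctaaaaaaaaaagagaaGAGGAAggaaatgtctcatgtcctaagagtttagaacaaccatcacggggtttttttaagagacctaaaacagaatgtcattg
Tlr9 (chr9:106222348-106222597, forward strand): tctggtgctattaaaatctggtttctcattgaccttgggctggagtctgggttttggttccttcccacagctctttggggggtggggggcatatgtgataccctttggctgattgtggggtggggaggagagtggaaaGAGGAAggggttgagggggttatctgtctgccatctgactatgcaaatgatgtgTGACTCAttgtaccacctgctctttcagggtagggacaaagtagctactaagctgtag
Tlr3 (chr8:45410381-45410630, reverse strand): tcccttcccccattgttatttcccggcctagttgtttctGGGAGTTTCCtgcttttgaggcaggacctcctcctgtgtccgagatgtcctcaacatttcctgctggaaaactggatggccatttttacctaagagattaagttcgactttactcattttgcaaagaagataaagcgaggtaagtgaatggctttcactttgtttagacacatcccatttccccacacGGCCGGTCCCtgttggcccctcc

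The PU.1 core stood once in each of the windows of Tlr8, Tlr13 and Tlr9, and in that of Tlr3 these letters did not occur. Among the members not shown, 1 of the windows of Tlr1, which was not called, also held it, and neither window of Tlr6, which rose, nor that of Tlr2 did. The core lay 77 to 72 bases before the start of Tlr8, on the opposite strand, and 83 to 78 bases before that of Tlr13. Of all 32851 windows of this length in the table, 23.3% held it. The window of Tlr3 held the NF-kB letters at 2 places, as did 45.8% of windows at 1 place or more. That of Tlr8 held the TATA letters at 2 overlapping places, as did 12.4% of windows at 1 place or more. Of the members not shown, Tlr2, Tlr5 and 1 of the windows of Tlr6 also held the NF-kB letters. The same window of Tlr6 held the TATA letters. The AP-1 letters in the window of Tlr9 were found in 6.75% of windows. The table matched 8 of the 10 listed genes, with 10 windows, since Tlr1 and Tlr6 have 2 starts each. Tlr4 and Tlr7, which both rose, were not among them, so their windows were not read. The interferon-stimulated element, held by 2.98% of all windows, occurred in 1 of the windows of Tlr6, at 2 overlapping places. These are matches of letters, and no binding was measured.

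Among the surface receptors, Tlr4 and Tlr6 rose. Tlr4, the receptor of bacterial lipopolysaccharide, stood at 7.72, 7.65 and 7.83 (log2 intensity) in control 1, 2 and 4. It stood at 8.66, 9.07 and 8.99 in relapsed 1, 2 and 3. Every relapsed array lay at least 0.83 above every control array, and here relapsed 1 was the lowest of its group. The difference was 1.17 ± 0.12 (SE, 3 arrays per group), a 2.25-fold rise (limma, adjusted p = 0.0130). Leaving out single arrays gave differences of 1.09 to 1.29, with adjusted p of 0.0234 to 0.0553.

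Tlr6 is a partner of Tlr2 for diacylated lipopeptides. Its levels were 6.19, 6.38 and 6.48 in the controls and 7.33, 7.10 and 6.89 in the relapsed tumours, with no overlap and a gap of 0.42. It rose by 0.76 ± 0.14 or 1.69-fold (limma, adjusted p = 0.0340), and this p ran from 0.0594 to 0.101 when single arrays were left out.

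Tlr2, the common subunit of the lipopeptide receptors, did not pass the test. It measured 7.83, 7.94 and 8.23 in the controls and 9.13, 8.66 and 8.57 in the relapsed tumours, again without overlap. The difference was 0.79 ± 0.18 (95% interval 0.33 to 1.25; limma, adjusted p = 0.0590). It passed with the dimmer 50% of genes left out and with quantile normalization, with adjusted p of 0.0308 and 0.0414. All alternatives together gave 0.0308 to 0.419. Its mean-centred profile over the 6 arrays was closer to that of Tlr6 than in any other pair of members, with a root mean square difference of 0.09.

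Tlr1, which joins Tlr2 to read triacylated lipopeptides, varied more. Its levels were 7.08, 7.80 and 7.99 in the controls and 9.41, 8.45 and 8.49 in the relapsed tumours, so that relapsed 1 stood well above the other relapsed arrays and control 1 well below the other controls. The difference of 1.16 ± 0.36 was close to that of Tlr4, but its 95% interval of 0.27 to 2.06 was wider (limma, adjusted p = 0.111). It passed under none of the alternatives (adjusted p of 0.0530 to 0.530). Tlr1 and Tlr6 lie side by side on chromosome 5 and are close copies of each other, and whether their probes cross-react was not tested.

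The largest differences were those of endosomal RNA sensors. Tlr8 stood at 7.34, 6.75 and 7.08 in the controls and at 9.29, 9.02 and 8.92 in the relapsed tumours. The lowest relapsed array exceeded the highest control by 1.58, the widest gap of any member. Tlr8 rose by 2.02 ± 0.18 or 4.05-fold (limma, adjusted p = 0.00996), and was the 59th highest difference of 19938 genes. Without single arrays the difference was 1.86 to 2.16 and the adjusted p 0.0295 to 0.0473.

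Tlr7, the neighbour of Tlr8 on the X chromosome and a sensor of single-stranded RNA, stood at 6.35, 6.72 and 7.25 in the controls. In the relapsed tumours it stood at 8.98, 8.17 and 8.21. The groups were apart by 0.92, and both spread by about the same amount (SD of 0.45 and 0.46). It rose by 1.68 ± 0.32 or 3.20-fold (limma, adjusted p = 0.0376). That p ran from 0.0684 to 0.107 when single arrays were left out, with differences of 1.41 to 1.91, and was over the threshold with all probe sets tested.

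Tlr13, which recognises bacterial ribosomal RNA and is absent from the human genome, stood at 8.23, 8.23 and 8.68 in the controls and at 10.32, 9.69 and 9.87 in the relapsed tumours. The groups were apart by 1.01. It rose by 1.58 ± 0.21 or 2.99-fold (limma, adjusted p = 0.0183). Without single arrays the difference was 1.40 to 1.73, and the adjusted p of 0.0380 to 0.0665 crossed the threshold.

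Tlr9, the endosomal receptor of CpG DNA, was the member whose groups overlapped. Its levels were 7.95, 8.30 and 9.13 in the controls and 9.54, 8.34 and 8.38 in the relapsed tumours. Control 4 thus lay above relapsed 2 and 3. The difference of 0.30 ± 0.45 had a 95% interval of -0.83 to 1.42 (limma, adjusted p = 0.727). It was -0.10 without relapsed 1. The interval includes both 0 and the 1.17 of Tlr4.

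Tlr3, the receptor of double-stranded RNA, was lower in relapsed tumours, the opposite of the RNA sensors above. It measured 9.45, 9.39 and 10.09 in the controls and 8.68, 8.97 and 8.75 in the relapsed tumours, with no overlap and a gap of 0.42. The difference was -0.84 ± 0.21, 95% interval -1.37 to -0.32, and missed the threshold (limma, adjusted p = 0.0685). Median centring (-0.92, adjusted p = 0.0401) and leaving out the dimmer 50% of genes (adjusted p = 0.0346) each brought it past. All alternatives together gave 0.0346 to 0.447.

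The directions of all 9 members were the same under quantile normalization and median centring as in the deposited values. Median centring shifted the median of all genes from -0.02 to -0.09. It turned the split of genes called from 735 higher and 1091 lower to 696 higher and 1687 lower, and that of the receptors from 5 and 0 to 5 higher and 1 lower, the latter being Tlr3.

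**Figure D2:**
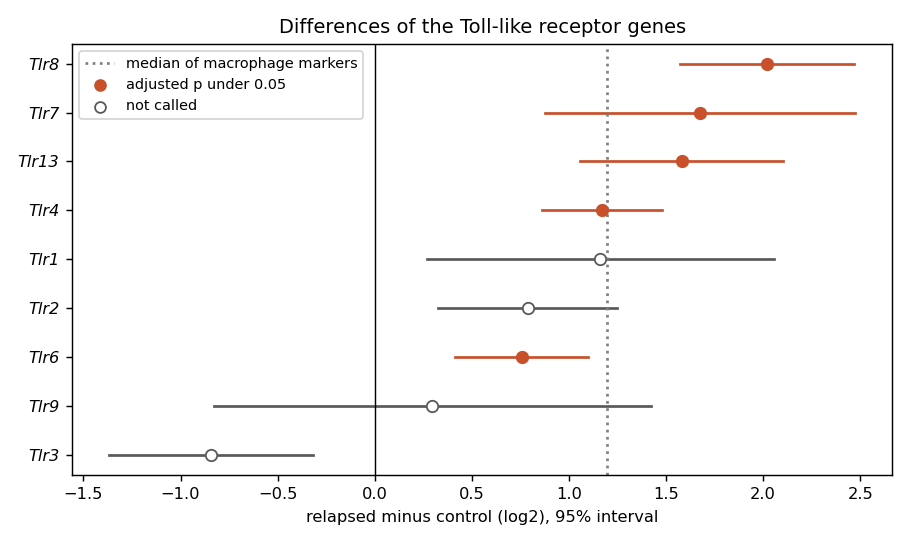
Difference of each receptor between relapsed and control tumours (horizontal axis, log2) with its 95% interval from limma; filled points had an adjusted p under 0.05, and the dotted line is the median difference of 14 macrophage markers, 1.19. The differences run from -0.84 for Tlr3 to 2.02 for Tlr8.

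The highest array of each group was the same for most members. Control 4 was the highest control array for 8 of the 9 receptors, all but Tlr8. Relapsed 1 was the highest relapsed array for 7, all but Tlr3 and Tlr4, for which it was the lowest. The lowest array varied more, being control 1 for 5 members and control 2 for 4, and relapsed 1, 2 or 3 for 2, 4 and 3 members. Relapsed 1 also had the highest mean level of macrophage markers among the relapsed arrays, and control 4 the highest among the controls. Relapsed 1 stood apart in adipocyte markers as well, with a mean level of 9.15 over 4 genes against 5.89 to 6.34 on the other arrays. Relapsed 3 stood apart in keratinocyte markers (7.71 against 5.63 to 5.89) and control 2 in skeletal muscle markers (9.82 against 7.03 to 7.89). Their part in the receptor values was not tested.

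Markers of macrophages moved the same way as most receptors, though not as Tlr3. Of 14 measured markers, 9 rose and none fell in limma, and the median difference of the 14 was 1.19. Their mean level was 8.98 to 9.28 in control and 10.21 to 10.68 in relapsed tumours. Fcer1g, Cd163 and Mertk had overlapping groups. In RNA from whole tumours a change in the number of cells of a type and a change in RNA per cell cannot be told apart. Fibroblast markers rose as well, in 7 of 8 genes, with a mean level of 8.98 to 9.46 in control and 10.65 to 11.50 in relapsed tumours. Of 6 microglia markers, none was called higher in limma and Sall1 was called lower. At an unadjusted p under 0.05, 5 were higher and 1 lower, against 11.2% and 15.4% of all genes. The 5 also lay higher on every relapsed array, as did 13.0% of all genes. Whether these genes mark microglia in tumours grown under the skin was not tested.

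Markers of other blood cells that can carry these receptors gave no call. At an unadjusted p under 0.05, 11.2% of all genes were higher and 15.4% lower. Of 9 neutrophil markers none was called in limma (2 higher and 0 lower at an unadjusted p under 0.05), and 6 lay below 5.66 in both groups, among them Ly6g at 4.42 and 4.63. The mean level of these markers was 5.30 to 5.45 in control and 5.46 to 5.63 in relapsed tumours. None of 7 conventional dendritic cell markers was called either (0 at an unadjusted p under 0.05), with mean levels of 6.43 to 6.75 and 6.60 to 7.28. Nor was any of 5 plasmacytoid dendritic cell markers (1 higher and 1 lower unadjusted), with mean levels of 6.18 to 6.54 and 6.28 to 6.80. The 4 B cell markers had mean levels of 5.27 to 5.33 and 5.34 to 6.16, with no call and 1 higher unadjusted. Of 6 natural killer cell markers none was called (1 higher unadjusted), at 5.33 to 5.64 and 5.63 to 6.48. Their part in the receptor values was not tested. Of 7 glioma markers, Olig1 and Olig2 fell and none rose, and all 7 lay above 5.66 in both groups.

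Set against the macrophage markers on the same array, the receptors fell into different positions. The level of each receptor minus the mean of the 14 markers was compared by a two-sided exact permutation test, whose smallest possible p with 3 against 3 arrays is 0.1, so none could pass. Relative to the markers, Tlr8 was 0.80 higher in relapsed than control tumours (exact p = 0.1, adjusted over 9 receptors 0.15) and Tlr13 0.36 higher (exact p = 0.1), each without overlap. Tlr7 was 0.45 higher with overlapping groups (exact p = 0.2). Tlr4 and Tlr1 differed by -0.05 and -0.06 (exact p = 1 each).

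The other 4 were lower relative to the markers. The values were -0.43 for Tlr2, -0.47 for Tlr6, -0.92 for Tlr9 and -2.06 for Tlr3, each with an exact p of 0.1 and no overlap. The marker mean itself was 1.22 higher in relapsed tumours, so a gene with an unchanged level would also come out lower. Tlr9, whose own groups overlapped, came out apart after the subtraction. The share of all genes apart after it was not computed, so the separation of these 4 is not particular to the receptors. Tlr6 was nearly constant against the markers within the controls, at -2.79, -2.80 and -2.80, and lay at -3.35, -3.12 and -3.32 in the relapsed tumours. With Ptprc, the pan-leukocyte gene, in place of the 14 markers, Tlr8 was 0.14 higher, while Tlr7 and Tlr13 stood at -0.20 and -0.30, so that their sign changed with the reference. Tlr4 and Tlr1 stood at -0.71 each, and Tlr2, Tlr6, Tlr9 and Tlr3 at -1.09, -1.12, -1.58 and -2.72.

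**Figure D3:**
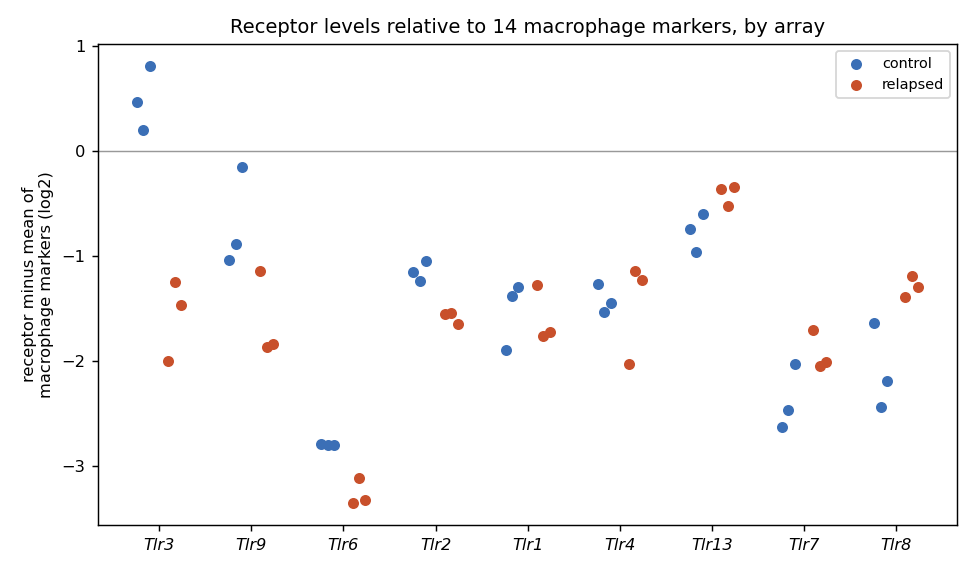
Level of each receptor minus the mean of 14 macrophage markers on the same array (vertical axis, log2), with 3 control and 3 relapsed arrays per receptor; arrays are to be compared within a receptor, since intensities of different probe sets have no common scale. Relapsed arrays lie below controls for Tlr3, Tlr9, Tlr6 and Tlr2 and above them for Tlr8 and Tlr13. The marker mean itself was 1.22 higher in relapsed tumours, so an unchanged gene would also lie below.

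The genes nearest to the most changed receptors were sought among those at or above the median level. The measure was the root mean square difference between mean-centred log2 profiles over the 6 arrays. For Tlr8 they were Lilr4b (0.07), Pdgfc (0.13) and Lilrb4a (0.15), that is a pair of closely related immunoglobulin-like receptors of myeloid cells and a platelet-derived growth factor. Whether the probes of the pair cross-react was not tested. For Tlr7 they were Nrep (0.17), Tlr13 (0.18) and Igsf6 (0.18). For Tlr13 they were Tm6sf1 (0.10), the granzyme inhibitor Serpinb9 (0.12) and Adgre1 (0.14), which encodes the macrophage antigen F4/80. Serpinb9 reached the median level, 7.39, only through its relapsed levels, since the controls stood at 6.56, 6.44 and 6.81. The near profiles are descriptions over 6 arrays in 2 groups.

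Accessory receptors deliver ligands or hold the receptors at the surface. Of 6 measured, 2 rose and none fell, with a median difference of 1.36. Cd14, which passes lipopolysaccharide to Tlr4, stood at 7.95, 8.18 and 7.70 in the controls and at 10.10, 9.34 and 9.18 in the relapsed tumours, and rose by 1.60 ± 0.27 (limma, adjusted p = 0.0298). Ly86, which encodes MD-1, the partner of the Tlr4-like protein Cd180, rose by 1.45 ± 0.25 (adjusted p = 0.0296). Cd180 itself differed by 0.78 ± 0.34 and Ly96, the MD-2 subunit that binds lipopolysaccharide with Tlr4, by 1.27 ± 0.43, with adjusted p of 0.223 and 0.133 in limma. Cd36, a scavenger receptor that aids Tlr2 and Tlr6, showed the widest spread, at 10.11, 9.18 and 7.60 in the relapsed tumours against 6.76, 6.50 and 7.43 in the controls, and did not pass (2.06 ± 0.67, adjusted p = 0.123). Lbp, which brings lipopolysaccharide to Cd14, had overlapping groups, with a difference of 0.11 ± 0.50 (adjusted p = 0.911).

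Of 10 genes that fold, carry or cleave the endosomal receptors, 3 rose and none fell, with a median difference of 0.40. All 3 were cathepsins, the lysosomal proteases that trim these receptors. Ctsk rose by 1.92 ± 0.25, Ctss by 1.47 ± 0.24 and Ctsb by 0.52 ± 0.06, with adjusted p of 0.0177, 0.0273 and 0.0163 in limma. Ctsl and Lgmn, proteases with the same role, differed by 0.64 ± 0.19 and 0.27 ± 0.12 and were not called. The chaperones were not called either, with differences of 0.53 ± 0.25 for Unc93b1, 0.19 ± 0.15 for Hsp90b1 and -0.37 ± 0.19 for Cnpy3.

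Of the intracellular pathway, no measured adaptor, kinase, ligase or transcription factor was called to either side. Irak4, Traf3, Chuk and Ripk1 of the kinases and ligases, and Nfkb1 of the transcription factors, were not measured. None of 6 adaptors, 12 kinases and ligases and 8 transcription factors passed in limma, with median differences of 0.05, 0.04 and -0.03. At an unadjusted p under 0.05, 1 adaptor, 1 kinase and 1 transcription factor were higher and 2 transcription factors lower. Of all genes, 11.2% were higher and 15.4% lower at that threshold. Myd88, the main adaptor, stood at 9.59, 9.94 and 9.94 in the controls and 10.57, 9.62 and 9.89 in the relapsed tumours, a shift of 0.20 ± 0.26 (95% interval -0.46 to 0.86). Ticam1, the adaptor of Tlr3, differed by -0.11 ± 0.20. The smallest p among adaptors were those of Ticam2, which bridges Tlr4 to Ticam1, at 0.78 ± 0.18 (adjusted p = 0.0575), and Tirap, which bridges it to Myd88, at -0.20 ± 0.08 (adjusted p = 0.202).

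Among the kinases and ligases the smallest p were those of Ikbke, which phosphorylates interferon regulatory factors, at 0.55 ± 0.13 (adjusted p = 0.0637) and Irak2 at 0.28 ± 0.13 (adjusted p = 0.236). Among the transcription factors they were those of Irf7 and Rel. Irf7, the interferon regulatory factor that acts below Tlr7 and Tlr9, measured 10.92, 10.85 and 11.45 in the controls and 10.42, 10.09 and 9.48 in the relapsed tumours, a difference of -1.07 ± 0.29 with an adjusted p of 0.0813. Rel, an NF-kB subunit, differed by 0.66 ± 0.20 (adjusted p = 0.110). With the dimmer 50% of genes left out of the test, Ticam2 and Ikbke passed as higher and Irf7 as lower.

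Among 12 negative regulators, 1 rose and none fell, with a median difference of 0.08. Tnip3, which binds the NF-kB brake Tnfaip3, stood at 5.73, 5.48 and 5.64 in the controls and at 7.46, 7.21 and 6.63 in the relapsed tumours (limma, adjusted p = 0.0223). Its control mean lay below 5.66, so the size of its rise is not given. Irak3, an inhibitory Irak-family protein of macrophages, differed by 0.87 ± 0.22 (limma, adjusted p = 0.0695, and 0.0347 with the dimmer 50% of genes left out). Tnfaip3 differed by 0.08 ± 0.19.

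Of 18 cytokine and effector genes that the receptors induce, none was called in limma. At an unadjusted p under 0.05, 3 of the 18 were higher and 0 lower, against 11.2% and 15.4% of all genes. On every relapsed array 5 lay above every control, as did 13.0% of all genes. The median difference was 0.44. Ccl2, the monocyte chemokine, came closest, at 8.83, 9.40 and 9.20 in the controls and 10.90, 10.37 and 9.83 in the relapsed tumours, a difference of 1.23 ± 0.30 with an adjusted p of 0.0676. Ptgs2, the inducible cyclooxygenase, differed by 1.10 ± 0.34 (adjusted p = 0.111). With the dimmer 50% of genes left out of the test, Ccl2 passed (adjusted p = 0.0305). Tnf differed by 0.21 ± 0.24, and Ifnb1, the beta interferon gene, stayed below 5.66 on all 6 arrays.

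Of 9 endogenous ligands none was called in limma either, with a median difference of 0.39. At an unadjusted p under 0.05, 2 were higher and 1 lower, against 11.2% and 15.4% of all genes. Bgn, which encodes the matrix proteoglycan biglycan, differed by 0.87 ± 0.22 and Hmgb1, a nuclear protein that signals when released, by 0.51 ± 0.16, with adjusted p of 0.0716 and 0.113. Bgn passed with the dimmer 50% left out (adjusted p = 0.0361).

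Of 8 cytosolic sensors of nucleic acids and their adaptors, 7 had a lower mean in relapsed tumours, with a median difference of -0.38. Of all genes, 55.1% had a lower mean. In limma 1 rose and none fell, with 1 higher and 4 lower at an unadjusted p under 0.05. Of all genes, 11.2% were higher and 15.4% lower at that threshold. Aim2, the DNA sensor of the inflammasome, rose by 1.41 ± 0.28 (adjusted p = 0.0413), and was called neither with all probe sets tested nor in any of the 6 fits with an array left out. Dhx58 and Ddx58, helicases that bind RNA, and Mavs, the adaptor of Ddx58, lay below every control on every relapsed array. Of all genes, 17.8% did so. Dhx58, Ddx58 and Mavs differed by -1.31 ± 0.29, -0.65 ± 0.17 and -0.59 ± 0.14, with adjusted p of 0.0506, 0.0722 and 0.0588 in limma. Ifih1, a further helicase that signals through Mavs, had overlapping groups and differed by -0.19 ± 0.28 (adjusted p = 0.716). With median centring Dhx58, Ddx58 and Mavs passed as lower, with adjusted p of 0.0335, 0.0393 and 0.0417.

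**Figure D4:**
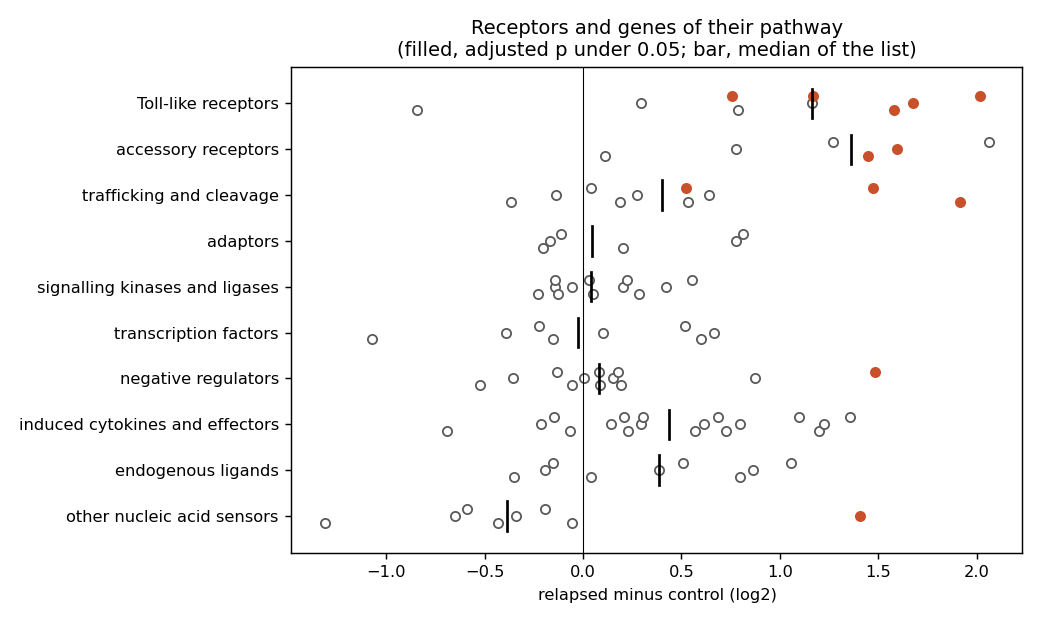
Difference between relapsed and control tumours (horizontal axis, log2) of each measured gene, by list, with the median of each list as a bar; filled points had an adjusted p under 0.05 in limma. The filled points lie among the receptors, accessory receptors and proteases, with 1 negative regulator and 1 cytosolic sensor, and the adaptors, kinases, transcription factors, cytokines and ligands hold none.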

How the data were processed

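The deposited table gives 1 log2 intensity for each of 35556 probe sets on each of 6 arrays. The log2 scale was read from the values (1.93 to 14.24), and array medians were 6.58 to 6.68. Per the submitters' processing notes the authors used affy, version not given. Its settings, background correction and normalization are not stated in the labels. Values scaled between arrays would hide a change shared by most transcripts.

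Genes were named from the platform annotation. Of the probe sets, 21789 had 1 symbol, 1621 several and 12146 none, and for 999 genes the one with the highest mean was used. List genes were matched by symbol or by Entrez gene ID through RefSeq (GRCm38.p6). Of 95 pathway entries 89 were measured.

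Differences came from limma 3.58.1 in R 4.3.3 (lmFit and eBayes, 4 residual and 1.53 prior degrees of freedom), with relapsed against control as the term and Benjamini-Hochberg adjustment over 19938 genes. The number of arrays limits the precision. SE are from limma, SD over 3 arrays, and folds are 2 to the power of the log2 difference. The members and lists were chosen with earlier results of these data known. Named from each list were up to 4 called genes of largest change, or the 2 of smallest p where none was called. Near profiles were sought for 3 called members. Other list genes were named after their values were seen. Alternatives were leaving out the dimmer 50% of genes, quantile normalization, median centring, the mean of a gene's probe sets, all probe sets, a trended robust prior, the replicate number as a block, each array left out, and other macrophage references.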

Additional observations from a re-analysis of the deposited data

How the results depend on the processing

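The 6 fits with other filters, scalings, probe sets or priors called 4 to 6 of the receptors. Tlr4, Tlr8 and Tlr13 were called in all 6, Tlr7 in 5 and Tlr6 in 5, since it is among the dimmer 50% that 1 of them leaves out. That filter used the mean over all 6 arrays, and Tlr7 and Tlr8 passed it only through their relapsed levels. Their control means of 6.78 and 7.06 lay below 7.39, the median of all genes, so that fit is no separate support for either. Genes called over the whole array were 1572 to 2383 in the 6 fits. With 1 array left out, 1 to 3 receptors and 264 to 975 genes were called, in fits with fewer samples. With the replicate number as a block, which leaves 1 residual degree of freedom, limma called 0 receptors and 0 genes (lowest adjusted p = 0.394), with 7 receptors and 2199 genes at an unadjusted p under 0.05. The numbers 1 and 2 are shared by the groups, but arrays of the same number did not deviate together (r over genes of -0.34 and -0.25). With 3 arrays per group this cannot show whether they are pairs, and the main test did not treat them as such.

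The sign of a receptor's difference changed in 1 fit, for Tlr9 without relapsed 1 (-0.10, in a range of -0.10 to 0.63 over the arrays left out). Against macrophage markers, the near-zero values of Tlr1 and Tlr4 ran from -0.25 to 0.057 and from -0.21 to 0.23 with 1 array left out. With Ptprc alone Tlr7 and Tlr13 turned to -0.20 and -0.30. The cause of these changes was not tested. Of the pathway lists, 0 or 1 accessory receptor and 0 to 2 trafficking and cleavage genes were called with an array left out, against 2 and 3, and 0 or 1 in each other list.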

Other observations

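Tlr12, a further mouse member outside the list, was chosen after its values were seen. Its probe set stood at 5.63 ± 0.04 in control and 5.59 ± 0.10 in relapsed tumours (SD, n = 3), close to 5.66, the median level of probe sets that the annotation lists under no gene, with a difference of -0.04 ± 0.07 and an adjusted p of 0.737 in limma.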
